A study of Mus musculus with 15 samples.

Results

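Brain microvessels taken from the tumour-bearing region of untreated mice with glioblastoma were compared with microvessels from the opposite, tumour-free hemisphere. The comparison took 6 of the 15 libraries of the study, 3 per side, and every gene with a normalised score of at least 10 in at least 3 of the 15 libraries, which kept 19668 of 27174 genes. The mice were adult wild-type BL6/57 animals, and both sides came from mice given control IgG, so "untreated" here means that no therapeutic agent was given. Vessels were isolated 21 days after transplantation of the tumour cells, and each library pooled the vessels of 3 mice. Which cell line formed the tumours, and whether libraries with the same number came from the same mice, was not stated. The sham-operated healthy mice of the study (3 libraries) serve only as a reference level. Tumour-bearing mice given the agents Aflibercept and AMG386, with or without anti-PD1 (3 libraries each), entered the statistical fit and are otherwise not described.

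Endothelial cells of brain capillaries form the blood-brain barrier. They are sealed by tight junctions, move little by vesicles, pump drugs back into the blood and carry glucose and other nutrients through dedicated transporters. Pericytes and smooth muscle cells wrap them, astrocyte endfeet and perivascular macrophages lie on their outer face, and Wnt signals keep the barrier programme running. In glioblastoma, vessels sprout, leak and lie next to dividing tumour cells and infiltrating leukocytes, and a microvessel preparation can carry some of these neighbours along.

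The libraries held an estimated 9218483 to 18035515 reads. Endothelial genes were strongly represented on both sides. Pecam1, an adhesion molecule of endothelial junctions, scored 9872 to 11709 in the contralateral libraries and 6625 to 9444 in the tumour libraries. Cdh5, which encodes VE-cadherin, scored 6750 to 10625 and 6295 to 7387. A pair of libraries stood apart from the other two of their group. Untreated tumour replicate 2 had mitochondrial ribosomal RNA at 33.2% of its score, against 21.5% to 22.4% in the other tumour libraries and 14.5% to 15.8% in the contralateral ones, and 72 of its genes scored over 3 times below both other tumour libraries. Contralateral replicate 2 had 34 genes over 3 times above both other contralateral libraries. In bulk RNA of this kind, fewer cells of a type and less RNA per cell cannot be told apart.

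The vessels of the 2 hemispheres differed widely. At a limma adjusted p below 0.05, 8354 of 19668 genes (42.5%) were called, of which 4147 rose (21.1%) and 4207 fell (21.4%) in the tumour. The libraries of both sides did not overlap for 49.7% of the genes, of which the tumour libraries were higher for 25.3% and lower for 24.5% of all genes tested. Large changes were mostly increases: 681 genes rose and 55 fell by at least 3 on the log2 scale, and 121 rose and 0 fell by at least 5. Among the 1874 genes with a mean score of at least 1000 on both sides, by contrast, 272 rose and 751 fell. The filter let in more genes restricted to the tumour: 91 passed it only through the untreated tumour libraries and 3 only through the contralateral ones. Of the genes called, 73 were listed at 0 in all contralateral libraries and 6 at 0 in all untreated tumour libraries. The part of such genes in the excess of large rises was not tested. The balance of rises and falls depended on the scaling. When libraries were scaled to their endothelial identity genes, 4196 genes rose and 2788 fell, so that rises made up 60.1% of calls in place of 49.6%, and the median log2 change of all genes moved from 0.01 to 0.14. Without the pair of libraries that stood apart, 3875 genes rose and 3922 fell. A call made here means an adjusted p below 0.05, and a change is a difference of log2(score + 1), tumour minus contralateral, with its standard error (SE). The p-values measure the spread between libraries of pooled mice. Counts of rises and falls in a list are to be read beside the shares of all genes, 21.1% and 21.4%.

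**Figure D1:**
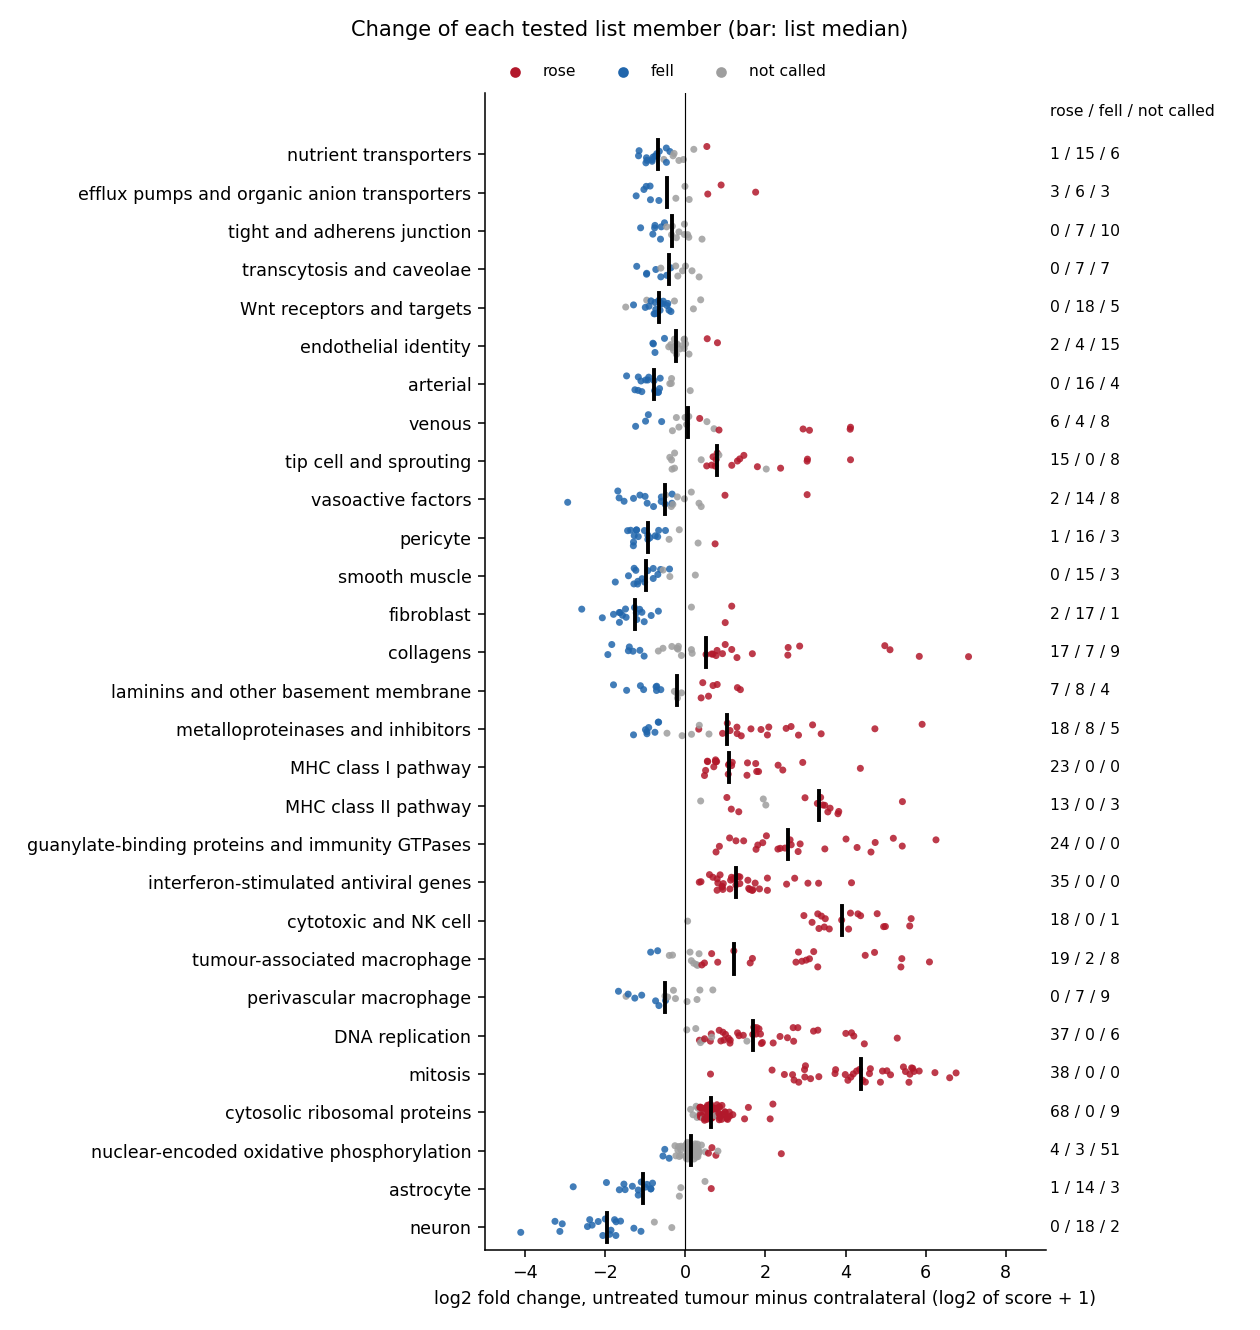
Each point is 1 tested gene of a list, placed by its log2 fold change (untreated tumour minus contralateral, 3 libraries each) and coloured by its call at an adjusted p below 0.05. Black bars are list medians, and the numbers at the right count members that rose, fell or were not called. Vessel, mural and neural lists lie mostly left of 0, with medians down to -1.95 for neurons. Interferon, leukocyte and cell division lists lie mostly right of it, with medians up to 4.39 for mitosis. Exceptions are perivascular macrophages (median -0.50) among the leukocyte lists, and tip cell (0.80) and venous genes (0.06) among the vessel lists.

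Transporters of the barrier were lower in tumour vessels. Of 22 nutrient transporter genes, 15 fell and 1 rose, with a median change of -0.68. Slc2a1, the glucose carrier GLUT1, scored 36890, 38136 and 33574 in the contralateral libraries and 15054, 23590 and 17171 in the tumour libraries (-0.98 ± 0.18, adjusted p = 0.000201). Slc19a3, a thiamine carrier, scored 1515, 1384 and 1429 against 565, 836 and 573 (-1.16 ± 0.18, adjusted p = 4.79e-05). The libraries of the 2 sides did not overlap for either of these carriers, and the zinc exporter Slc30a1 fell by a similar size (-0.96 ± 0.16, adjusted p = 0.000127). Not every carrier fell. The transferrin receptor gene Tfrc, which brings iron into the brain, scored 2739 to 3586 and 2278 to 2767 and was not called, and neither was the cationic amino acid carrier Slc7a1 (3325 to 5166 and 4337 to 5334), which rose with quantile normalisation (adjusted p = 0.0203). The only riser was Slc29a1, a nucleoside carrier (0.54 ± 0.17), whose call was lost without contralateral replicate 3 (adjusted p = 0.0911) or untreated replicate 1 (adjusted p = 0.0667).

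Most efflux pumps and organic anion transporters that were called fell. Of 12, 6 fell (50%) and 3 rose (25%), with a median of -0.45. Over all genes tested 21.4% fell and 21.1% rose, so the share of rises was near that of all genes. The organic anion transporter Slco1a4 scored 24449, 24961 and 27604 against 9828, 16526 and 12050 (-1.04 ± 0.18, adjusted p = 0.000146). The breast cancer resistance protein gene Abcg2 scored 3828, 3270 and 3744 against 2076, 2703 and 2112 (-0.66 ± 0.14, adjusted p = 0.000819). Slco2a1 and Abcc1 were among the risers. Slco2a1, a prostaglandin carrier, scored 159, 96 and 95 there and 376, 397 and 381 in the tumour (1.76 ± 0.27, adjusted p = 3.97e-05). Abcc1, the multidrug resistance protein MRP1, scored 362 to 416 against 544 to 649 (0.56 ± 0.13, adjusted p = 0.00198). Of the P-glycoprotein genes, Abcb1a, the main one of mouse brain endothelium, fell (-0.98 ± 0.14), and Abcb1b rose by 0.89 ± 0.26 (adjusted p = 0.0107), a call that was lost without contralateral replicate 3 (adjusted p = 0.0842).

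Junction genes moved less. Of 17 tested, 7 fell and 0 rose, and the median change was -0.34. Tjp1, which encodes the scaffold ZO-1, scored 14615, 12873 and 13717 against 7647, 10346 and 8978 (-0.62 ± 0.12, adjusted p = 0.000441). Ocln, the gene of occludin, scored 6625, 6211 and 6594 against 3047, 5084 and 3553 (-0.77 ± 0.16, adjusted p = 0.000626). Jam2, a junctional adhesion molecule, changed by -0.81 ± 0.17 (adjusted p = 0.000973). In contrast, Esam, an adhesion molecule of endothelial and platelet contacts, scored 3066 to 3853 and 2976 to 3817 and changed by -0.02 ± 0.13. The main barrier claudin gene Cldn5 changed by -0.32 ± 0.15 and was not called (adjusted p = 0.0800), while without untreated replicate 2 it was (-0.47, adjusted p = 0.0123).

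Genes of vesicular transport did not rise as a list. Of 14 genes of transcytosis and caveolae, 7 fell and 0 rose (median -0.41), although with quantile normalisation 3 rose and 5 fell, and without contralateral replicate 2 1 rose. Cav1 and Cavin1 build caveolae, the flask-shaped pits that carry plasma proteins across leaky endothelium. Cav1 scored 3088, 2894 and 2654 against 1542, 2042 and 2105 (-0.61 ± 0.15, adjusted p = 0.00319). Cavin1 scored 16320, 12556 and 14342 against 5017, 9154 and 8524 (-0.97 ± 0.17, adjusted p = 0.000156). Lrp1, a receptor that clears amyloid beta and lipoproteins, changed by -1.21 ± 0.13 (adjusted p = 1.06e-06), and the insulin receptor gene Insr, at 4758 to 5923 and 5024 to 5365, was not called (adjusted p = 0.988), although with quantile normalisation it rose (adjusted p = 0.0311).

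The Wnt pathway, which sustains barrier genes in brain endothelium, was lower. Of its 23 receptors and targets, 18 fell and 0 rose (median -0.67). Reck, a membrane anchor that presents Wnt7 ligands to endothelial cells, scored 3532, 2569 and 3262 in the contralateral vessels and 859, 1405 and 1662 in the tumour (-1.29 ± 0.18, adjusted p = 1.84e-05). Axin2, a feedback target of the pathway, scored 946, 747 and 1021 against 474, 544 and 423 (-0.91 ± 0.14, adjusted p = 3.96e-05). The co-receptor Lrp5 changed by -0.76 ± 0.14 (adjusted p = 0.000202). Adgra2, the partner of Reck also known as Gpr124, was not called (1631 to 1879 and 1189 to 1687, adjusted p = 0.104), while without untreated replicate 2 it fell (-0.37, adjusted p = 0.0375). Of 21 genes of general endothelial identity, 4 fell (19%) and 2 rose (9.5%), with a median of -0.22, which became 0.04 with quantile normalisation. Without untreated replicate 2, 8 of them fell and 1 rose, and with quality weights 8 fell and 2 rose. Of all genes tested 21.4% fell in the main fit, near the share of these identity genes.

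Along the vessel tree, arterial genes fell together. Of 20 arterial genes, 16 fell and 0 rose, with a median of -0.77. Gkn3, a marker of brain arterial endothelium, scored 1371, 1165 and 1208 against 297, 551 and 556 (-1.47 ± 0.21, adjusted p = 1.88e-05). Alpl, tissue-nonspecific alkaline phosphatase, scored 2444, 1761 and 2318 against 517, 1164 and 1206 (-1.26 ± 0.24, adjusted p = 0.000372). Bmx, a non-receptor tyrosine kinase of arterial endothelium, scored 2547, 1812 and 2159 against 543, 1410 and 1128 (-1.18 ± 0.23, adjusted p = 0.000467). Tumour replicate 1 was the lowest library for each of these genes, and without it 12 of the 20 fell and 1 rose. The Notch ligand Dll4, used both by arteries and by sprouting tips, was not called (1035 to 2298 and 957 to 1288, adjusted p = 0.192).

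Venous genes split in 2 directions, with 6 of 18 rising (33.3%) and 4 falling (22.2%), and a median of 0.06. Over all genes tested 21.1% rose and 21.4% fell, so the share of venous falls was near that of all genes. The venous genes that rose include those that capture leukocytes on venules. Selp, P-selectin, scored 11, 17 and 3 in the contralateral libraries and 254, 104 and 167 in the tumour (4.12 ± 0.65, adjusted p = 5.99e-05), and its change was 3.49 without contralateral replicate 3. Sele, E-selectin, scored 6, 4 and 3 against 68, 21 and 57 (3.10 ± 0.72, adjusted p = 0.00207). Ackr1, the Duffy chemokine receptor of venules, scored 83, 87 and 47 against 624, 474 and 539 (2.94 ± 0.46, adjusted p = 4.80e-05). Icam1, which holds leukocytes firmly, rose by 0.84 ± 0.20 (adjusted p = 0.00196). Falling members were genes that set venous identity or are abundant in larger veins. Nr2f2, the venous transcription factor COUP-TFII, scored 5707, 3845 and 4939 against 1798, 3173 and 2779 (-0.92 ± 0.17, adjusted p = 0.000251), and the guidance molecule Flrt2 changed by -1.24 ± 0.13 (adjusted p = 8.53e-07). Vcam1, another leukocyte ligand, did not follow the selectins: it scored 3328 to 4818 and 3204 to 4950 and changed by -0.01 ± 0.19. Over 19 leukocyte adhesion genes, which include integrins of the leukocytes themselves, 10 rose and 5 fell.

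**Figure D2:**
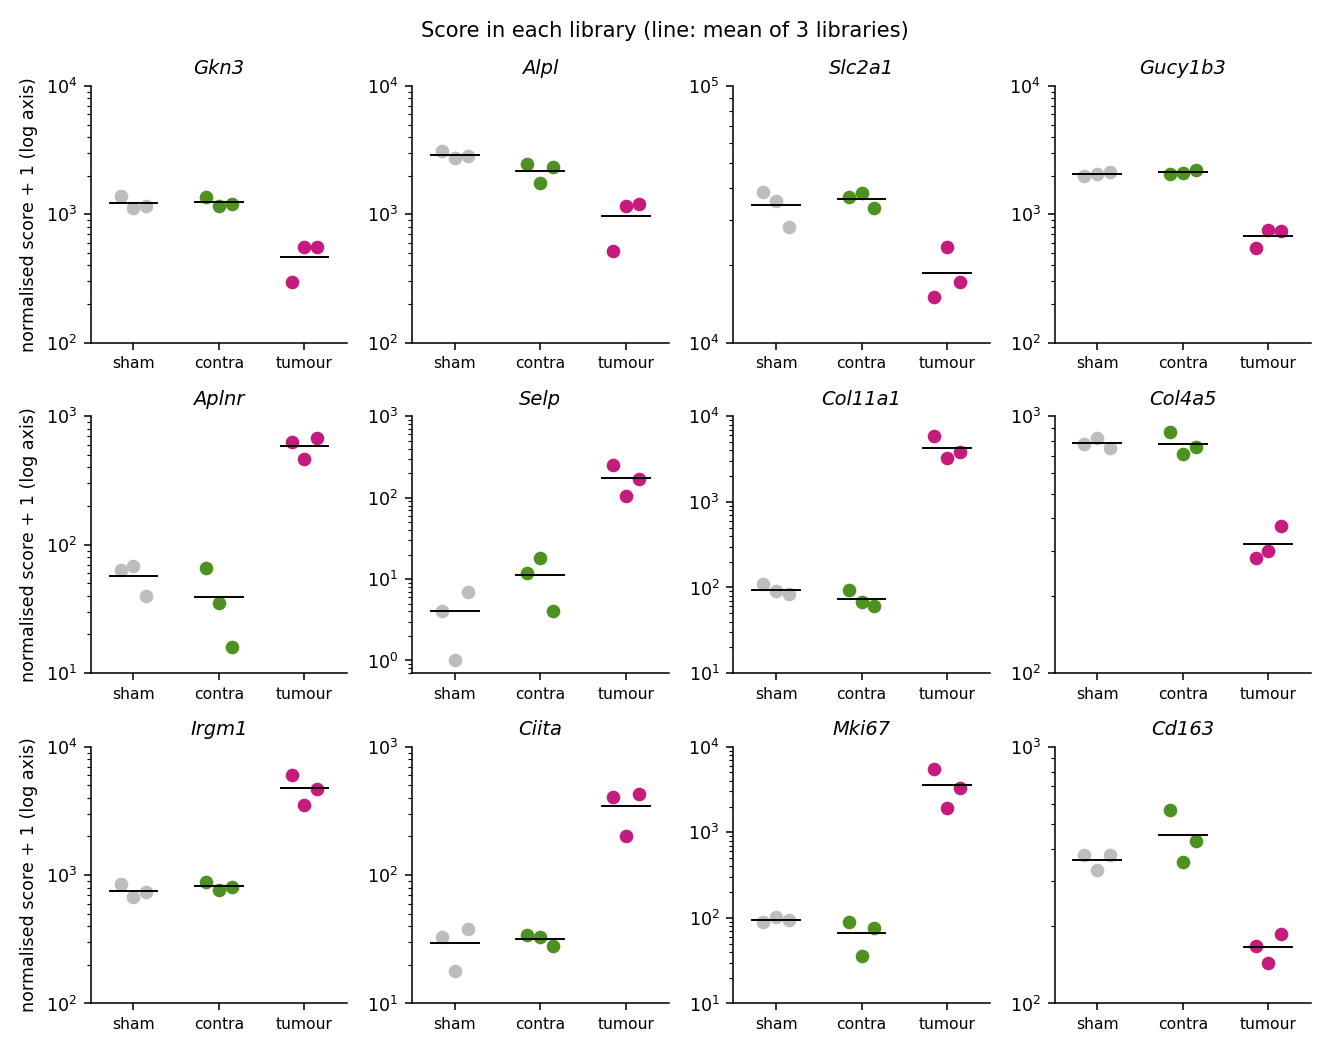
Normalised score + 1 of 12 genes on log axes in the 3 sham, 3 contralateral and 3 untreated tumour libraries (left to right within a group: replicates 1, 2 and 3), with lines at the group means. For all 12 genes the tumour libraries lie apart from the contralateral ones: below them for Gkn3, Alpl, Slc2a1, Gucy1b3, Col4a5 and Cd163, and above them for Aplnr, Selp, Col11a1, Irgm1, Ciita and Mki67.

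Genes of sprouting endothelium rose. Of 23 tip cell and sprouting genes, 15 rose and 0 fell, with a median of 0.80, and without untreated replicate 1 13 rose and 1 fell. Aplnr, the apelin receptor, scored 65, 34 and 15 against 628, 460 and 674 (4.12 ± 0.37, adjusted p = 1.37e-07), and the sham libraries had a mean of 56.0. Its ligand Apln scored 124, 914 and 274 against 4192, 2061 and 2026 (3.04 ± 0.47, adjusted p = 4.73e-05), with contralateral replicate 2 the highest of its group. The change of Apln was 3.81 without that library and 2.37 without contralateral replicate 1. Marcksl1, an actin regulator, rose by 2.38 ± 0.27 (adjusted p = 1.64e-06) and the chemokine receptor Cxcr4 by 1.80 ± 0.26 (adjusted p = 2.28e-05). Cxcr4 is also a member of the chemokine receptor list, of which 14 of 22 rose. Which cells carried the transcripts of the sprouting list was not tested. Within the VEGF and angiopoietin genes, 2 of 16 rose and 6 fell. Angpt2, the angiopoietin that destabilises vessels, scored 524, 1641 and 634 against 4009, 1971 and 1444 (1.46 ± 0.34, adjusted p = 0.00208), and the libraries overlapped. Without both libraries that stood apart the change of Angpt2 was 2.06. Its stabilising counterpart Angpt1 scored 692, 374 and 627 against 140, 291 and 312 (-1.22 ± 0.25, adjusted p = 0.000751), and their receptor Tek, also called Tie2, changed by -0.76 ± 0.17 (adjusted p = 0.00130). Of the VEGF receptors, Flt1 fell by 0.81 (adjusted p = 0.00171) and Kdr was not called (0.01 ± 0.14).

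Among Notch and TGF-beta genes, falls outnumbered rises. Of 21 Notch genes 9 fell and 1 rose, and with endothelial identity scaling 5 fell. Notch3, the receptor of mural cells, scored 4004, 3873 and 4422 against 1186, 1943 and 2000 (-1.30 ± 0.15, adjusted p = 2.50e-06), and its target Heyl fell by 1.28 (adjusted p = 1.87e-05). Notch1, the endothelial receptor, fell by 0.72 (adjusted p = 0.000203), while Adam10, the protease that cleaves these receptors, was not called (3600 to 4385 and 3911 to 4542). Of 29 TGF-beta and BMP genes, 17 fell, among them the receptors Tgfbr3 (-1.03 ± 0.14, adjusted p = 1.03e-05) and Bmpr1a (-0.75 ± 0.09, adjusted p = 3.80e-06) and the ligand-binding matrix protein Ltbp4 (-1.22 ± 0.20, adjusted p = 0.000104). The 2 that rose, Tgfb1 (0.56 ± 0.20) and Tgfbr1 (0.30 ± 0.11), lost their calls without contralateral replicate 1, contralateral replicate 3 or untreated replicate 3.

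Genes that set vascular tone fell. Of 24 vasoactive genes 14 fell and 2 rose (median -0.50). Without untreated replicate 1 9 fell and 1 rose, with endothelial identity scaling 9 fell, and without contralateral replicate 3 1 rose. Gucy1b3 and Gucy1a3 encode the subunits of soluble guanylate cyclase, through which nitric oxide relaxes mural cells. Gucy1b3 scored 2058, 2098 and 2203 against 541, 756 and 744 (-1.65 ± 0.12, adjusted p = 1.51e-08). Gucy1a3 scored 2647, 1922 and 2462 against 584, 860 and 1033 (-1.53 ± 0.16, adjusted p = 8.59e-07). The spread within each side was small beside the gap for both subunits. The endothelin receptors Ednra (-0.79 ± 0.10, adjusted p = 6.09e-06) and Ednrb (-1.29 ± 0.19, adjusted p = 3.20e-05) fell too. The endothelial nitric oxide synthase gene Nos3, which makes the signal, scored 1231 to 2129 and 966 to 1919 and was not called (adjusted p = 0.447).

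Mural cell genes were among the most uniform decreases. Of 20 pericyte genes 16 fell and 1 rose (median -0.94), and their summed score was 66194 to 82296 in the contralateral libraries and 36862 to 39421 in the tumour libraries. Rgs5, a regulator of G-protein signalling marking pericytes, scored 35227, 45216 and 39962 against 14627, 19529 and 17800 (-1.22 ± 0.15, adjusted p = 4.41e-06). Vtn, vitronectin, scored 5710, 7245 and 6889 against 2631, 2364 and 2285 (-1.44 ± 0.14, adjusted p = 3.08e-07). Pdgfrb, the receptor that recruits pericytes, fell by 1.22 (adjusted p = 7.55e-07). The gene that rose, Mcam (CD146), scored 4137, 4812 and 3782 against 8240, 6095 and 7029 (0.74 ± 0.13, adjusted p = 0.000138), and endothelial cells express it as well. Of 18 smooth muscle genes 15 fell and 0 rose (median -0.98). The contractile myosin gene Myh11 scored 23172, 12821 and 17535 against 3524, 7790 and 9894 (-1.42 ± 0.27, adjusted p = 0.000372), and Casq2, a calcium store protein, scored 436, 416 and 503 against 126, 137 and 137 (-1.75 ± 0.16, adjusted p = 1.33e-07).

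Fibroblast genes fell apart from the collagens among them. Of 20, 17 fell and 2 rose (median -1.25). Ptgds, prostaglandin D synthase of the meninges, scored 7316, 3709 and 5180 against 997, 1226 and 1541 (-2.07 ± 0.20, adjusted p = 2.36e-07). Slc6a13, a GABA carrier of perivascular and meningeal fibroblasts, scored 899, 513 and 792 against 209, 222 and 252 (-1.65 ± 0.20, adjusted p = 3.04e-06). Lamc3, a laminin chain of the same cells, fell by 1.79 (adjusted p = 1.91e-08). The 2 risers were the fibrillar collagens Col3a1, which scored 800, 986 and 868 against 2226, 1947 and 1758 (1.16 ± 0.18, adjusted p = 5.64e-05), and Col1a1, at 921, 779 and 1160 against 1911, 1438 and 2403 (SE 0.20, adjusted p = 0.000660), while Col1a2, the partner chain of Col1a1, was not called (0.15 ± 0.18, adjusted p = 0.515).

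The collagen family showed the widest range of any vessel or matrix list examined. Of 33 collagen genes 17 rose (51.5%), 7 fell (21.2%) and 9 were not called, with changes from -1.94 to 7.07. Over all genes tested 21.1% rose and 21.4% fell, so the share of collagen falls was near that of all genes. Col11a1 (ENSMUSG00000027966, GRCm38 chr3:114030540-114220718), a fibrillar chain typical of cartilage, scored 93, 66 and 60 in the contralateral libraries and 5875, 3254 and 3785 in the tumour libraries (5.84 ± 0.23, adjusted p = 2.07e-11). Its partner Col11a2 scored 54, 32 and 38 against 1658, 1509 and 1163 (5.11 ± 0.24, adjusted p = 1.23e-10). Col9a1, another cartilage chain, scored 6, 0 and 2 against 491, 411 and 251 (7.07 ± 0.60, adjusted p = 8.35e-08). Col20a1 rose by 4.98 ± 0.31 (adjusted p = 2.59e-09) and Col16a1 by 2.56 ± 0.18 (adjusted p = 1.09e-08). Type IV collagens, the network of the basement membrane, moved both ways. Col4a5 scored 868, 714 and 761 against 280, 297 and 372 (-1.31 ± 0.13, adjusted p = 2.83e-07). Col4a6, its neighbour on the X chromosome, scored 345, 230 and 316 against 81, 107 and 155 (-1.40 ± 0.20, adjusted p = 2.19e-05). The most widespread chains, Col4a1 (0.77 ± 0.16) and Col4a2 (0.66 ± 0.17), rose and are named here after their values were seen. Col12a1, which coats fibrils, scored 1803, 3801 and 3066 against 700, 986 and 666 (-1.84 ± 0.25, adjusted p = 1.35e-05). All 38 mitosis genes and 17 of 32 genes of glial progenitors and glioma rose with the cartilage-type collagens, and their part in these values was not tested. The change of Col9a1 was 6.34 without contralateral replicate 2 and 7.74 without contralateral replicate 1.

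**Figure D3:**
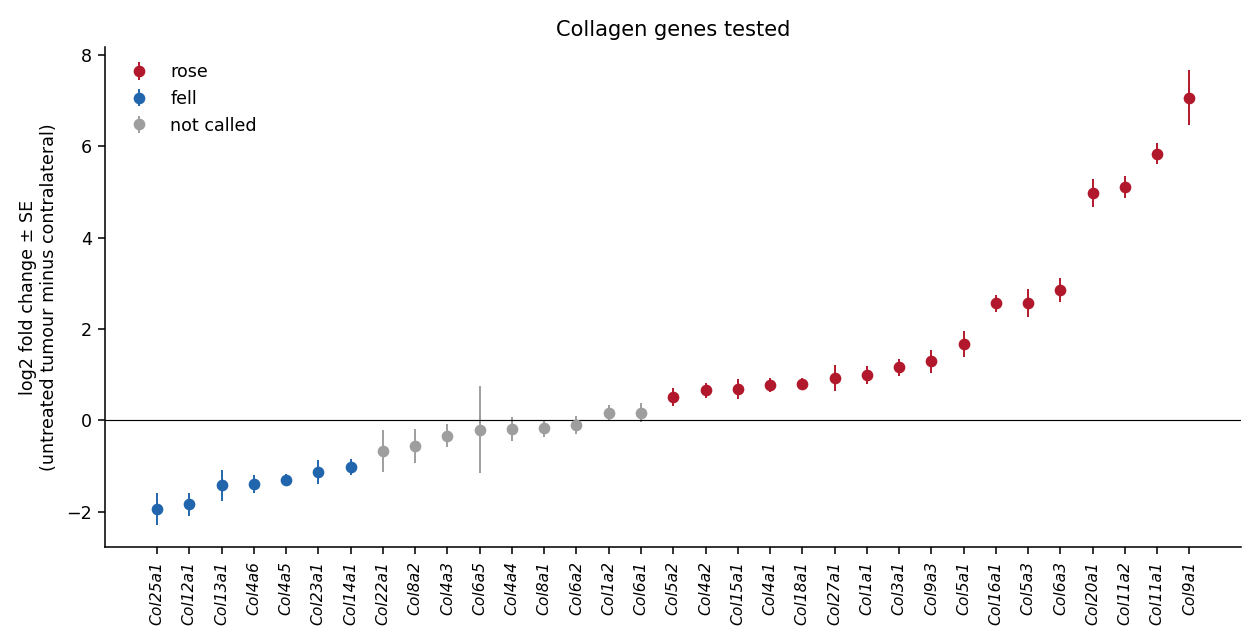
Log2 fold change ± SE of each of the 33 collagen genes tested (untreated tumour minus contralateral, 3 libraries each), ordered by size and coloured by call. Col20a1, Col11a2, Col11a1 and Col9a1 lie at 4.98 or above, and Col4a5, Col4a6 and Col12a1 lie at -1.31 or below.

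Laminins changed in composition. Of 19 laminin and other basement membrane genes 7 rose and 8 fell, and 4 rose without contralateral replicate 1, contralateral replicate 3 or untreated replicate 1. Lamb1, a chain of embryonic and sprouting vessels, scored 697, 847 and 670 against 2683, 1386 and 1591 (SE 0.19, adjusted p = 2.88e-05), and the endothelial chain Lama4 rose by 0.69 ± 0.16 (adjusted p = 0.00173). Lama2, made by mural cells and astrocytes, scored 2351, 2520 and 2254 against 965, 813 and 805 (-1.47 ± 0.13, adjusted p = 9.90e-08). Lamb2, the chain of mature vessels, scored 7359, 6012 and 6817 against 2283, 3910 and 3867 (-1.04 ± 0.16, adjusted p = 3.24e-05).

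Among 29 matricellular genes 14 rose and 8 fell, and 9 rose without contralateral replicate 3 or untreated replicate 1. Tnc, tenascin-C, scored 68, 102 and 61 against 2395, 563 and 1613 (4.09 ± 0.38, adjusted p = 2.13e-07). Vcan, the proteoglycan versican, scored 475, 509 and 410 against 5629, 2004 and 2733 (2.76 ± 0.25, adjusted p = 1.83e-07). Tumour replicate 1 was the highest and replicate 2 the lowest for both genes, and without replicate 2 the change of Tnc was 4.69. Sparcl1, an abundant secreted protein of vessels and astrocytes, fell by 0.80 (adjusted p = 3.04e-05). Of 31 metalloproteinases and inhibitors 18 rose and 8 fell (median 1.05), and 5 fell with endothelial identity scaling. Mmp14, the membrane-bound collagenase, scored 642, 620 and 531 against 2387, 1960 and 2303 (1.89 ± 0.17, adjusted p = 2.03e-07). Mmp2, the gelatinase it activates, scored 80, 70 and 55 against 605, 302 and 328 (2.52 ± 0.32, adjusted p = 6.67e-06). Their inhibitors moved the other way: Timp3 scored 40858, 28578 and 31945 against 13548, 19728 and 17586 (SE 0.17, adjusted p = 0.000116), and Timp2 fell by 0.96 (adjusted p = 0.00111).

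In the following lists of interferon-inducible genes, every tested member rose. All 24 tested guanylate-binding proteins and immunity-related GTPases rose (median 2.55), as did all 35 interferon-stimulated antiviral genes (1.26) and all 23 genes of the MHC class I pathway (1.09). The GTPases are cell-autonomous defences that interferon gamma induces in many cell types. Irgm1 (ENSMUSG00000046879, GRCm38 chr11:48865245-48871420) scored 888, 771 and 812 against 6050, 3501 and 4644 (2.49 ± 0.21, adjusted p = 7.99e-08). Gbp2 scored 1282, 1324 and 1224 against 5933, 3671 and 5309 (1.93 ± 0.28, adjusted p = 2.39e-05), and Gbp3 scored 1541, 1376 and 1509 against 5371, 4627 and 5060 (1.76 ± 0.15, adjusted p = 6.90e-08). The tumour libraries lay above the contralateral ones for each of these genes. Zbp1, a sensor of Z-form nucleic acids, scored 69, 27 and 54 against 756, 719 and 829 (4.01 ± 0.34, adjusted p = 8.76e-08). Several members of these families are near copies of each other, so reads may have been split or lost between them.

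The interferon-stimulated response element is the site that STAT and IRF factors bind in such promoters. Its core was searched as GAAA, any 2 bases and GAAA again, overlaps allowed, on both strands from 250 bases before to 50 after each RefSeq start (GRCm38.p6). It was present at 3.99% of all 27025 genes with a window. A window was matched for 13 of the 24 GTPase genes, and 11 of the 13 held the core. Of the antiviral genes 24 of 35 were matched, and 14 held it. With fewer than 80% of members matched, both shares are void as a check of the lists and stand only as a description. For 5 genes that rose, the 150 bases before the start are printed 5′ to 3′ along the gene, with each match in capitals, to show how near the start it lies. The windows are chr11:48871421-48871570 for Irgm1, chr11:49064213-49064362 for Tgtp2, chr3:142620513-142620662 for Gbp2, chr3:142559894-142560043 for Gbp3 and chr8:71537473-71537622 for Bst2, of which Gbp2 and Gbp3 lie on the plus strand and the others on the minus strand.
Irgm1: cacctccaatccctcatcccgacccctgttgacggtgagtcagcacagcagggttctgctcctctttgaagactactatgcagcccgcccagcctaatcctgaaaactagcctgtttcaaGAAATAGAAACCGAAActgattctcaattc
Tgtp2: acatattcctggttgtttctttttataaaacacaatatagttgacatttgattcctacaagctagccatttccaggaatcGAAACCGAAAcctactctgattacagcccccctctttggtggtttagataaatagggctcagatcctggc
Gbp2: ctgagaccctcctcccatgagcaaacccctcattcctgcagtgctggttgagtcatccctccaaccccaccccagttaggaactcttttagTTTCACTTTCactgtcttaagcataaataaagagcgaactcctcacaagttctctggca
Gbp3: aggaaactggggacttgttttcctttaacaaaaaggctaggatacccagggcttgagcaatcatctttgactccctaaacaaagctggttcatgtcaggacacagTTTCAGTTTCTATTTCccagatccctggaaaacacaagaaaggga
Bst2: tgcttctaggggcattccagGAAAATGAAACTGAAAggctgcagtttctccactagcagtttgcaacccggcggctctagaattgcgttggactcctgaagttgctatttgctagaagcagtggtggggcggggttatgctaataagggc
Irgm1, Gbp3 and Bst2 each hold a pair of overlapping matches, and in Irgm1 the match nearest the start ends 15 bases before it. Bst2, tetherin, which holds budding virus at the cell surface, scored 182, 153 and 163 against 932, 541 and 647 (2.05 ± 0.21, adjusted p = 7.47e-07). Tgtp2, a T-cell-specific GTPase in name, scored 489, 251 and 317 against 2232, 1318 and 1627 (2.31 ± 0.24, adjusted p = 5.54e-07).

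Antigen presentation rose in both classes. For class I, the peptide transporter gene Tap1 scored 473, 440 and 425 against 2937, 1749 and 2724 (2.43 ± 0.24, adjusted p = 3.12e-07), and H2-K1, a classical heavy chain, scored 1933, 1447 and 1368 against 5889, 4314 and 6128 (1.78 ± 0.19, adjusted p = 7.19e-07). Their activator Nlrc5 rose by 4.37 ± 0.28 (adjusted p = 4.15e-09). For class II, 13 of 16 genes rose and 0 fell (median 3.34). Ciita, the master regulator of class II genes, scored 33, 32 and 27 against 403, 202 and 429 (3.38 ± 0.37, adjusted p = 1.17e-06), and H2-Ab1 scored 181, 104 and 91 against 2060, 1141 and 2147 (3.83 ± 0.35, adjusted p = 2.03e-07). Tumour replicate 2 was the lowest of its group for each of these 5 genes. Among 33 STAT, IRF and SOCS regulators 18 rose and 4 fell, and 2 fell without untreated replicate 1. Stat2 rose by 1.89 ± 0.17 (adjusted p = 1.34e-07), Irf7 by 1.76 ± 0.15 (adjusted p = 1.02e-07) and Irf1 by 1.56 ± 0.20 (adjusted p = 8.13e-06). The kinase gene Jak1 (2132 to 2527 and 2083 to 2570) and Stat3 (1901 to 2609 and 2254 to 2936) were not called, although both passed with quantile normalisation (adjusted p = 0.0462 and 0.0389).

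Lymphocyte genes were near the detection floor on the contralateral side and higher in the tumour preparations. Of 19 cytotoxic and NK cell genes 18 rose and 0 fell (median 3.90), with a summed score of 64 to 98 in the contralateral libraries and 1541 to 1684 in the tumour libraries. Gzma, granzyme A, scored 16, 16 and 18 against 484, 484 and 493 (4.79 ± 0.39, adjusted p = 5.12e-08). Ncr1, the NK cell receptor NKp46, was listed at 1, 0 and 0 against 45, 59 and 82, and the inhibitory receptor gene Klrc1 at 0, 1 and 0 against 54, 66 and 66. For each of these genes every tumour library lay above every contralateral one. Of 28 T cell genes 19 rose and 2 fell (median 2.42), and 1 fell without contralateral replicate 2 or 3 or untreated replicate 1 or 3. The 2 that fell were Bcl11b and Tcf7. Cd3e, a chain of the T cell receptor complex, scored 9, 2 and 10 against 122, 98 and 123 (4.05 ± 0.50, adjusted p = 4.73e-06), and Il2rb, a receptor chain for interleukin-2, scored 11, 0 and 3 against 103, 145 and 175 (5.25 ± 0.61, adjusted p = 2.38e-06). Without contralateral replicate 2 the change was 4.32 for Il2rb and 3.45 for Cd3e, and without contralateral replicate 1 it was 6.12 for Il2rb. Of 23 immune checkpoint genes 21 rose and 0 fell (median 2.23), for instance Havcr2, which encodes TIM-3 (2.85 ± 0.28, adjusted p = 3.46e-07).

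Chemokines and their receptors rose for several leukocyte classes. Of 28 chemokine genes 14 rose and 3 fell, and of 22 receptors 14 rose and 3 fell, with 1 falling without contralateral replicate 2 or untreated replicate 1. Cxcl10, which attracts activated T cells, scored 43, 27 and 34 against 1107, 496 and 943 (4.52 ± 0.53, adjusted p = 2.69e-06). Ccl11, eotaxin, scored 15, 3 and 7 against 284, 86 and 123 (4.18 ± 0.47, adjusted p = 1.44e-06). The falling members include the membrane-bound chemokine gene Cx3cl1, at 1210, 1520 and 1064 against 347, 549 and 601 (-1.36 ± 0.18, adjusted p = 7.89e-06), and Cxcl12, the ligand of Cxcr4 (-0.80 ± 0.20, adjusted p = 0.00299). Ccr2, the monocyte receptor, rose by 3.10 ± 0.35 (adjusted p = 1.70e-06) and Ccr7, which guides dendritic cells and naive T cells, by 4.29 ± 0.53 (adjusted p = 4.39e-06). Of 27 complement genes 15 rose and 4 fell. C3, the central component, scored 186, 103 and 54 against 1532, 790 and 2128 (3.75 ± 0.46, adjusted p = 3.94e-06), while the regulator Clu fell (-0.81 ± 0.12, adjusted p = 4.38e-05).

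Macrophage lists moved in opposite directions. Of 29 tumour-associated macrophage genes 19 rose and 2 fell (median 1.21), with 1 falling without contralateral replicate 3 and 0 without untreated replicate 3. The 2 that fell were Spp1 and Cd36. Among the abundant members, Apoe (-0.32 ± 0.18, adjusted p = 0.167) and Ctsb (0.21 ± 0.13, adjusted p = 0.211) were not called. Apoe fell without contralateral replicate 2 (adjusted p = 0.0445), and Ctsb rose with quantile normalisation (adjusted p = 0.0201). Gpnmb, a glycoprotein of lipid-laden macrophages that some glioma cells also make, scored 19, 36 and 30 against 3352, 1291 and 1691 (6.10 ± 0.38, adjusted p = 2.57e-09). Arg1, arginase 1, scored 11, 17 and 7 against 364, 290 and 299 (4.72 ± 0.39, adjusted p = 6.01e-08), and Il1b, interleukin-1 beta, scored 4, 5 and 3 against 186, 228 and 212 (5.41 ± 0.48, adjusted p = 1.26e-07). Resident perivascular macrophage genes went the other way or were not called: of 16, 7 fell and 0 rose (median -0.50). Of these 16, 4 fell without contralateral replicate 1 and 1 rose without untreated replicate 2. With endothelial identity scaling 4 fell and 1 rose. The scavenger receptor gene Stab1 just missed a call (1790 to 1929 and 2078 to 2410, 0.29 ± 0.12, adjusted p = 0.0508). It rose in several alternatives, among them quality weights (adjusted p = 0.0131) and quantile normalisation (adjusted p = 0.00352). Colec12, a scavenger receptor that endothelium and perivascular cells also make, scored 2175, 1970 and 2275 against 635, 700 and 678 (-1.67 ± 0.12, adjusted p = 1.18e-08). The mannose receptor gene Mrc1 scored 2353, 2141 and 2440 against 1277, 948 and 1052 (-1.09 ± 0.14, adjusted p = 9.05e-06), and Cd163, the haemoglobin scavenger receptor, scored 567, 356 and 428 against 166, 143 and 185 (-1.43 ± 0.18, adjusted p = 4.03e-06). Of 16 homeostatic microglia genes 8 rose and 3 fell, and 5 rose without untreated replicate 2. The microglial receptor gene Cx3cr1 rose by 1.08 ± 0.18 (adjusted p = 0.000120), Sall1, a factor of microglial identity, fell by 0.80 (adjusted p = 0.00890), and P2ry12 was not called (108 to 124 and 122 to 153).

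Cell division genes rose most. All 38 mitosis genes rose, with a median of 4.39 and a summed score of 1098 to 1584 in the contralateral libraries and 15292 to 30026 in the tumour libraries, the highest in replicate 1. Mki67, the proliferation antigen Ki-67, scored 88, 35 and 75 against 5465, 1933 and 3323 (5.71 ± 0.33, adjusted p = 1.43e-09). Top2a, the topoisomerase that untangles chromosomes, scored 110, 37 and 40 against 4153, 1999 and 2791 (5.68 ± 0.33, adjusted p = 1.43e-09). Of 43 DNA replication genes 37 rose and 0 fell (median 1.68). Mcm2 and Mcm5, subunits of the replicative helicase, rose by 1.71 ± 0.14 and 2.81 ± 0.22 (adjusted p = 5.03e-08 and 3.76e-08). Cdkn2a, which encodes the cell cycle inhibitors p16 and p19Arf, scored 4, 1 and 0 against 237, 88 and 95 (5.88 ± 0.57, adjusted p = 3.28e-07; 6.49 without contralateral replicate 1), while Cdkn1c, the inhibitor p57, fell by 1.35 (adjusted p = 1.75e-05). Which cells carried these transcripts was not tested.

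Promoters of mitosis genes are known for a repressor element, the cell cycle genes homology region, through which the DREAM complex silences them in resting cells. Its letters TTTGAA were found on either strand in 20.2% of all 27025 windows and in 24 of the 32 mitosis genes with a window (75.0%, of 38 in the list). The 150 bases before the start are shown for Mki67 (chr7:135716380-135716529) and Top2a (chr11:99024190-99024339), both on the minus strand, with matches in capitals.
Mki67: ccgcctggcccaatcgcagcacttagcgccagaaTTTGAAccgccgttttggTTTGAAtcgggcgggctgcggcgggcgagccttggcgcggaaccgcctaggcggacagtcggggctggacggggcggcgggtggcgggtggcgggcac
Top2a: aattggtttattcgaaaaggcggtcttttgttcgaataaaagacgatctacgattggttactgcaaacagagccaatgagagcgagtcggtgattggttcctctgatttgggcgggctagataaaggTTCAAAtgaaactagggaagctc
Mki67 holds 2 matches and Top2a 1, the latter on the opposite strand, 18 bases before the start.

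Most ribosomal protein genes rose. Of 77 cytosolic ribosomal protein genes 68 rose and 0 fell, with a median of 0.64 and changes from 0.13 to 2.19. Rplp0, of the ribosomal stalk, scored 1870, 2217 and 1861 against 4917, 4348 and 3242 (1.06 ± 0.13, adjusted p = 2.83e-06), and Rps12 scored 236, 213 and 226 against 1064, 531 and 535 (1.57 ± 0.22, adjusted p = 1.36e-05). The mean of the list stood at 0.95, 0.73 and 0.42 above the contralateral mean in tumour replicates 1, 2 and 3. Nuclear genes of oxidative phosphorylation did not share this: of 58, 4 rose and 3 fell (median 0.14), although 12 rose without untreated replicate 3 and 2 without untreated replicate 1. Transcripts of the mitochondrial genome were higher, with 7 of 9 rising, for example mt-Nd4 at 7018, 4089 and 8148 against 15816, 24205 and 10611 (1.37 ± 0.28, adjusted p = 0.000638). Replicate 2, the library with the largest share of mitochondrial ribosomal RNA, was the highest, and the part of that share in the change was not tested. Without both libraries that stood apart the change of mt-Nd4 was 0.78 (adjusted p = 0.0179).

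Hypoxia and glycolysis lists showed shares of calls near those of all genes tested (21.1% rose and 21.4% fell). Of 26 hypoxia genes 5 rose (19.2%) and 7 fell (26.9%), while 2 rose without contralateral replicate 3 and 3 without untreated replicate 1. Car9, a carbonic anhydrase that HIF induces, scored 13, 9 and 8 against 64, 65 and 33 (2.29 ± 0.44, adjusted p = 0.000424), and Vegfa rose by 0.81 ± 0.21 (adjusted p = 0.00456). Epas1, the HIF-2 alpha gene of endothelium, scored 42479, 36327 and 39548 against 14740, 25391 and 22827 (-0.95 ± 0.17, adjusted p = 0.000225), and Ndrg1, a hypoxia target, scored 7858, 6716 and 7015 against 2319, 4114 and 3096 (-1.22 ± 0.16, adjusted p = 7.07e-06). Of 23 glycolysis genes 6 rose (26.1%) and 7 fell (30.4%; 4 fell with endothelial identity scaling). Hk2, the inducible hexokinase, rose by 2.08 ± 0.30 (adjusted p = 1.99e-05), and Eno2, an enolase of neurons, changed by -2.17 ± 0.21 (adjusted p = 2.83e-07).

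Transcripts of neighbouring brain cells fell. Of 20 neuron genes 18 fell and 0 rose (median -1.95), and their summed score was 20920 to 25323 in the contralateral libraries and 4402 to 7471 in the tumour libraries. Snap25, a synaptic fusion protein, scored 3659, 4312 and 4556 against 1498, 629 and 1487 (-1.89 ± 0.27, adjusted p = 2.19e-05). Gad2, an enzyme of GABA synthesis, scored 594, 864 and 899 against 122, 37 and 113 (-3.25 ± 0.34, adjusted p = 7.88e-07), with a change of -2.63 when both libraries that stood apart were left out. Of 18 astrocyte genes 14 fell and 1 rose (median -1.05), and 0 rose without contralateral replicate 1 or 3 or untreated replicate 1 or 2. Slc1a2, the glutamate transporter GLT-1, scored 26970, 34276 and 29332 against 9231, 9599 and 9936 (-1.65 ± 0.26, adjusted p = 6.97e-05), and Agt, angiotensinogen, scored 117, 152 and 134 against 9, 37 and 18 (-2.80 ± 0.39, adjusted p = 1.68e-05). Gfap, the filament of reactive astrocytes, was not called (717 to 1220 and 1173 to 1619, adjusted p = 0.269), although it passed with a replicate block in a fit of the 6 libraries (0.49, adjusted p = 0.0276). The neural genes moved with the vessel and mural decreases, and the division genes and most leukocyte lists, apart from perivascular macrophages, with the increases. Their part in the other results was not tested.

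Of 32 genes of glial progenitors and glioma, 17 rose (53.1%) and 9 fell (28.1%), with a median of 0.58. Of all genes tested 21.1% rose and 21.4% fell, so the falls were not far above the share of all genes. Hmga2, an embryonic chromatin protein, was listed at 1, 0 and 1 against 235, 117 and 118 (6.55 ± 0.49, adjusted p = 2.38e-08). Olig2, the factor of the oligodendrocyte lineage, scored 55, 51 and 54 against 931, 368 and 592 (3.44 ± 0.28, adjusted p = 6.25e-08), and Cd44, a hyaluronan receptor, scored 118, 190 and 124 against 1259, 813 and 1132 (2.89 ± 0.27, adjusted p = 2.27e-07). In contrast, the growth factor receptors Pdgfra, at 2863, 1637 and 2681 against 814, 667 and 1034 (-1.49 ± 0.21, adjusted p = 1.77e-05), and Egfr (-1.03 ± 0.15, adjusted p = 1.99e-05) fell. Pdgfra is also made by perivascular fibroblasts, whose other genes fell. Imprinted genes were mostly lower, 14 of 24 falling and 3 rising, and with endothelial identity scaling 9 fell. The neighbours H19 and Igf2 parted: the non-coding RNA H19 scored 157, 50 and 12 against 6530, 5892 and 2938 (6.68 ± 0.57, adjusted p = 9.01e-08; 5.75 without contralateral replicate 3 and 7.55 without contralateral replicate 1), and the growth factor gene Igf2 scored 13196, 9783 and 12217 against 3489, 4446 and 3882 (-1.57 ± 0.15, adjusted p = 3.36e-07).

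**Figure D4:**
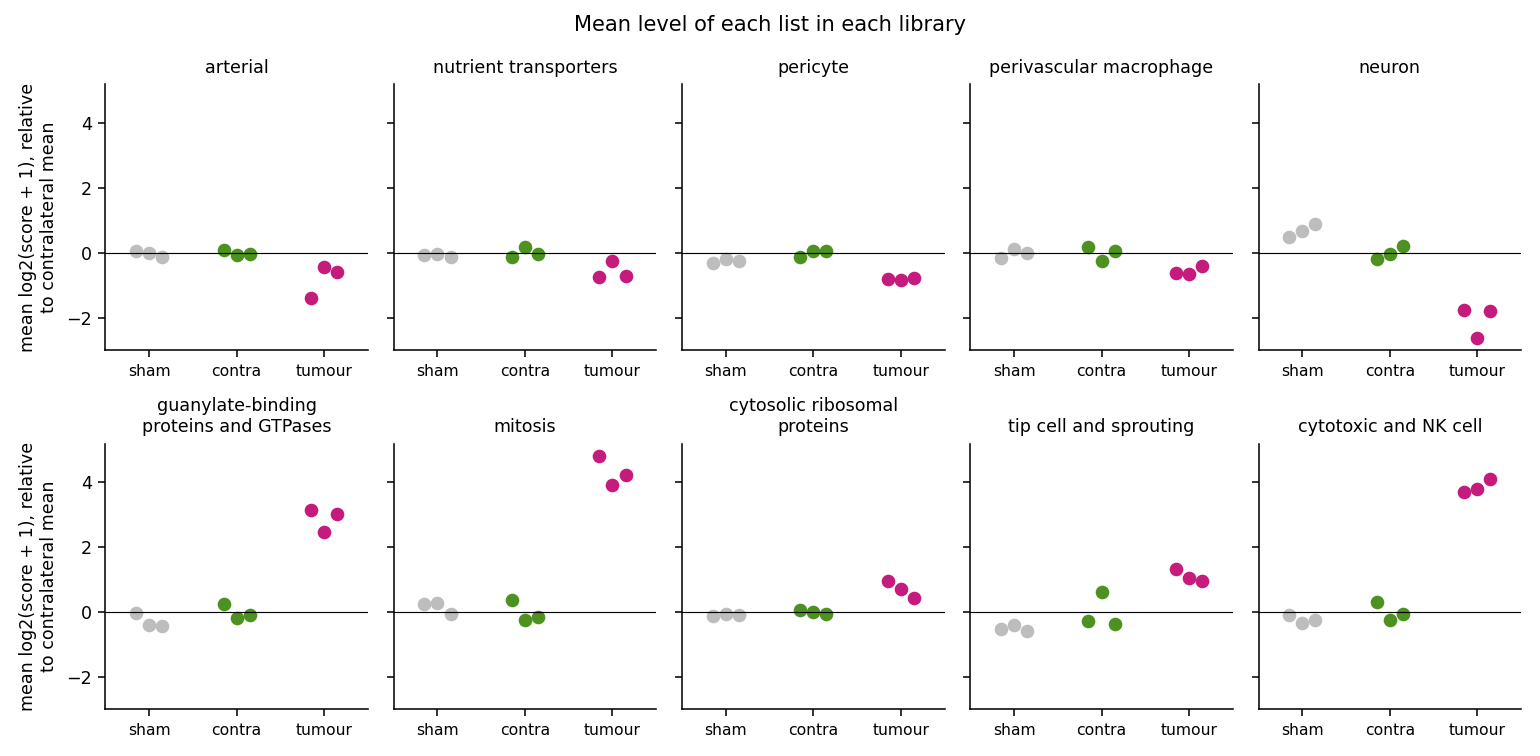
Mean log2(score + 1) over the tested members of 10 lists in each sham, contralateral and untreated tumour library, relative to the contralateral mean. Tumour replicate 1 is the lowest for arterial genes (-1.38, against -0.43 and -0.59 in replicates 2 and 3) and the highest for mitosis genes (4.82), and tumour replicate 2 is the lowest for neuron genes (-2.63).

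Abundant transcripts changed in both directions. Neat1 (GRCm38 chr19:5824708-5845478), the non-coding RNA that builds nuclear paraspeckles, scored 1324, 1788 and 1358 against 6749, 7447 and 6874 (2.25 ± 0.14, adjusted p = 2.19e-09). Rnf213, a large ubiquitin ligase linked to moyamoya disease of brain arteries, scored 3347, 4040 and 3565 against 13484, 10011 and 13869 (1.76 ± 0.15, adjusted p = 8.33e-08). Luc7l3, a splicing factor gene, rose by 1.41 ± 0.11 (adjusted p = 5.29e-08). Among those that fell, Slc7a11, the cystine-glutamate exchanger, scored 5754, 5230 and 6499 against 1641, 1622 and 2733 (-1.58 ± 0.18, adjusted p = 2.19e-06), and the ankyrin gene Ank2 scored 6462, 6824 and 7897 against 1821, 1137 and 1737 (-2.20 ± 0.23, adjusted p = 8.40e-07). Adamts9, a protease of the vessel matrix, had 1 contralateral library far above the others: it scored 543, 6643 and 542 against 4374, 7174 and 4429 and rose by 2.05 ± 0.60 (adjusted p = 0.00956), a call that was lost without contralateral replicate 1 (adjusted p = 0.0703) or replicate 3 (adjusted p = 0.0715). Without contralateral replicate 2, the high library, the change was 3.25 (adjusted p = 2.55e-08).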

How the data were processed

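Per the labels' protocols, RNA of isolated brain microvessels was extracted with an on-column DNase step, and libraries were made with a stranded total RNA kit, so nuclear and ribosomal RNA can be present. Per the submitters' processing notes, STAR 2.4.0a, featureCounts 1.4.5-p1 and DESeq2 were used with the mouse build GRCm38. No strand setting was stated for the counting, which leaves overlapping and antisense genes uncertain. The authors deposited 1 table of 27174 genes, whose unit is treated as a score: normalised values rounded to whole numbers, not raw counts. Reads per library were estimated from the step between low scores.

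Genes that scored 10 or more in 3 or more of 15 libraries were tested on log2(score + 1) with limma 3.58.1 (R 4.3.3), with an intensity trend, all 5 groups in the fit, and Benjamini-Hochberg adjustment over 19668 genes. The fit was tested on data for 18647 genes simulated with 1 spread common to all genes. For each size and direction 50 genes were changed, all drawn from those with a contralateral mean of about 50 or more. Of these, 100% of genes changed by 2 on the log2 scale, 90% of those raised by 1 and 78% of those lowered by 1 were called. Of the genes left unchanged, 17 were called. How the fit recovers genes near the floor was not tested. How it behaves with as large a share of changed genes as was called here was not tested either. The gene lists and the genes named were chosen with earlier results of these data known. The rule for naming took the largest changes, the most changed abundant genes, and up to 5 called members in each direction and 3 uncalled members per list. Promoters came from RefSeq (GRCm38.p6). Alternatives were another pseudocount, other filters, other scalings, other fits, a replicate block and leaving out each library. Some genes of the lists are not reported here by name.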

Additional observations from a re-analysis of the deposited data

How the results depend on the processing

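The comparison called 8354 genes. When 1 library was left out in turn, the calls ranged from 7048 to 8292, the rises from 3448 to 4110 and the falls from 3516 to 4182. With libraries scaled to their endothelial identity genes, 2788 genes fell. With a change of at least 1 on the log2 scale required as well, 4464 genes were called, of which 2495 rose and 1969 fell, by the construction of that limit. The cause of the shift with endothelial scaling was not tested. The labels do not say that equal replicate numbers mark the same mice, and deviations of same-numbered libraries correlated at -0.055, 0.021 and 0.070, so the numbers were not taken as pairs. With the replicate number as a block in a fit of only the 6 libraries 6799 genes were called, against 7110 in that fit without the block. By these deviations from the group means, contralateral replicates 1 and 2 correlated best with untreated replicate 2, and contralateral replicate 3 with untreated replicate 3. Of 241 called genes among the 279 followed singly, 228 kept their call in each of the 17 alternatives that tested them, and 0 reversed. Most of these called genes were chosen by their p-value or size of change in the main fit, so that count is a description only. Of all 8354 called genes, 6731 were also called without untreated replicate 1, and 6686 with the replicate block. The filter of 50 left out 5 of the 279. Precision was limited by 3 libraries per side, each a pool of mice, and by the absence of raw counts from the values used.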

Other observations

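Small nucleolar RNAs, which guide the chemical modification of ribosomal RNA, were higher in the tumour libraries. The class was picked with its values in view. Of 399 listed genes, 133 were tested, 84 rose and 1, Snord64, fell (limma, adjusted p below 0.05), with a median log2 change of 2.01. Their summed score was 1159, 1441 and 1251 in the contralateral libraries and 7550, 5051 and 4470 in the tumour libraries, so the groups did not overlap. It was 1377, 1849 and 1269 in the sham libraries. The non-coding transcript Gm26917 moved with it, at 0.436% to 0.680% of the score in the contralateral libraries and 4.17% to 5.64% in the tumour libraries, as did mitochondrial ribosomal RNA, at 14.5% to 15.8% and 21.5% to 33.2%. Their part in the result was not tested. Of the 133, 12 passed the filter only through the untreated tumour libraries, and among the other 121, 72 rose (median 1.90). Most were near the floor on the contralateral side: 44 of the 133 had a mean of at least 10 there, and 26 of the 44 rose. Of all genes tested, 21.1% rose. Over the alternatives that tested all 133 small nucleolar RNAs, between 65 and 94 of them rose.

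Contralateral replicate 2 carried higher scores for a set of 34 genes, also picked with their values in view. Lif, a cytokine, scored 5, 219 and 6 in the contralateral libraries and 20, 49 and 10 in the tumour libraries, and Plaur, the urokinase receptor, scored 173, 1106 and 113 against 422, 786 and 376. Of the 34 genes over 3 times above both other contralateral libraries, 11 rose and 1 fell with all libraries, and 22 rose and 1 fell without that library. These genes were chosen by that library's values, so the shift after leaving it out is a description only.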
